A study of Homo sapiens with 8 samples.

Results

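GAS5, C17orf76-AS1 and SNHG5 are long non-coding RNA genes that carry small nucleolar RNAs (snoRNAs) in their introns. The 3 genes were chosen by name from the 2709 non-coding RNA features of the deposited count tables, because they took the most reads among snoRNA host genes over the 3 cell libraries together and were much lower in exosomes. In cell libraries 1 and 3, another host, SNHG1, took more reads than SNHG5 (428373 against 310144, and 2131383 against 1536072). Because of this choice, the levels of the 3 genes and their exosome-to-cell differences are given as a description, with no test. The genes were also chosen as hosts of C/D snoRNAs that mostly have no entry of their own. Which small RNAs lie in the counted part of each gene was examined first, and is a description too.

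A snoRNA host gene is transcribed and spliced like a messenger RNA, but its products of known function are mostly the snoRNAs trimmed out of its introns. Box C/D snoRNAs carry 2 short conserved motifs, the C box near the 5′ end and the D box near the 3′ end, bind fibrillarin and guide 2′-O-methylation of ribosomal RNA in the nucleolus. Box H/ACA snoRNAs guide pseudouridylation. GAS5, growth arrest-specific 5, and SNHG5 belong to the genes whose spliced RNA starts with a terminal oligopyrimidine tract and is degraded during translation, and C17orf76-AS1 is an older name of SNHG29, also called LRRC75A-AS1.

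The libraries came from MEC-1, an established B-cell line from chronic lymphocytic leukemia, with no genetic change or drug treatment named in the labels. There were 5 libraries from exosomes, the small vesicles pelleted from bioreactor supernatant by ultracentrifugation over an Optiprep cushion, and 3 from the parental cells, so both groups share the cell line, the medium and the small RNA kit. Per the labels' protocols, medium was depleted of calf exosomes except that of the upper bioreactor compartment. RNA under 200 nt was isolated and the same mass of RNA went into each library, so every value here is a share of a library, and fewer molecules per vesicle or per cell cannot be told apart from more of other RNAs. Since no label calls the replicates separate cultures, a p-value here reflects the spread between libraries, which may be technical.

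Counted reads ranged from 23353820 to 32436286 per exosome library and from 25675636 to 57323598 per cell library. Cell library 2 and exosome library 5 stood apart in composition, with TMM scaling factors of 0.552 and 0.524 against 0.905 to 1.46 in the other 6. Of the B-cell microRNA genes MIR155, MIR142, MIR150, MIR181A1 and MIR181B1, the last 3 had an entry, and their summed level was 332 to 866 RPM (reads scaled to the library total, without TMM) in exosomes and 92.3 to 608 in cells. MIR155 and MIR142 had no entry, so the label was not checked on them. MIR122 of liver was at 24.0 to 160 RPM in exosomes against 0.384 to 1.91 in cells, MIR126 of endothelium and platelets at 11.0 to 75.5 against 0.661 to 5.70, and MIR143 of stroma at 3.89 to 37.9 against 0.367 to 1.32. MIR486 of red cells (24.3 to 77.3 against 13.4 to 28.5), MIR223 of myeloid cells (0.899 to 9.23 against 0.0367 to 7.56) and the 2 epithelial genes with an entry, MIR200C and MIR203 (5.89 to 8.74 against 1.54 to 8.62), overlapped between the groups, as did the B-cell sum. No marker entry summed to 0, and the part of these other RNAs in the host values was not tested.

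The counted part of the 3 hosts is where most of their snoRNAs lie. GAS5 spans chromosome 1, 173833038 to 173838020 on the minus strand of GRCh37, and its 5 counted blocks cover 3631 of 4983 nt, or 72.9%. These blocks are the union of annotated exons over all transcripts of the gene, and their lengths and gaps are the same as those of GENCODE 29, so that positions could be compared as distances from the 5′ end of the gene without converting coordinates. Newer annotation places 11 snoRNAs in the span. The box C/D RNAs SNORD74, SNORD76, SNORD77, SNORD44, SNORD79, SNORD80, SNORD47 and SNORD81 and the H/ACA RNA SNORA103 lie wholly inside counted blocks, which makes 9 of 11. SNORD75 and SNORD78 lie in gaps between blocks, at 1945 to 2004 nt and 3197 to 3261 nt from the 5′ end. SNORD75 has no entry in the table, while SNORD78 has one of its own.

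C17orf76-AS1 spans chromosome 17, 16342136 to 16381992 on the plus strand, a much longer locus of 39857 nt in which 8 blocks cover 3759 nt, or 9.4%. Its blocks also match GENCODE 29 in all lengths and gaps. All 3 of its snoRNAs are of the C/D class and lie inside: SNORD49B and SNORD49A in the first block, and SNORD65 in the second. SNHG5 spans chromosome 6, 86370710 to 86388451 on the minus strand, where 4 blocks cover 2206 of 17742 nt, or 12.4%. Its 5′ block of 1727 nt has the length of the RefSeq gene and holds both of its C/D snoRNAs, SNORD50B at 1075 to 1145 nt and SNORD50A at 1366 to 1440 nt. This placement rests on 1 block length and not on a match of the whole layout.

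In all, 14 of the 16 annotated snoRNAs of these genes lie inside the counted blocks, and they make up 1014 of 9596 counted nt, or 10.6%. The share is 18.6% in GAS5, 6.6% in SNHG5 and 5.1% in C17orf76-AS1. The deposited counts give 1 number for each gene, so they do not say whether reads fell on the snoRNAs or on the exons around them. In GENCODE 29 an antisense gene, GAS5-AS1, overlaps 42 nt of the counted GAS5 blocks. Whether the counting used strand is not given in the sources used here, and reads of both genes over those bases could not be told apart without it.

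**Figure D1:**
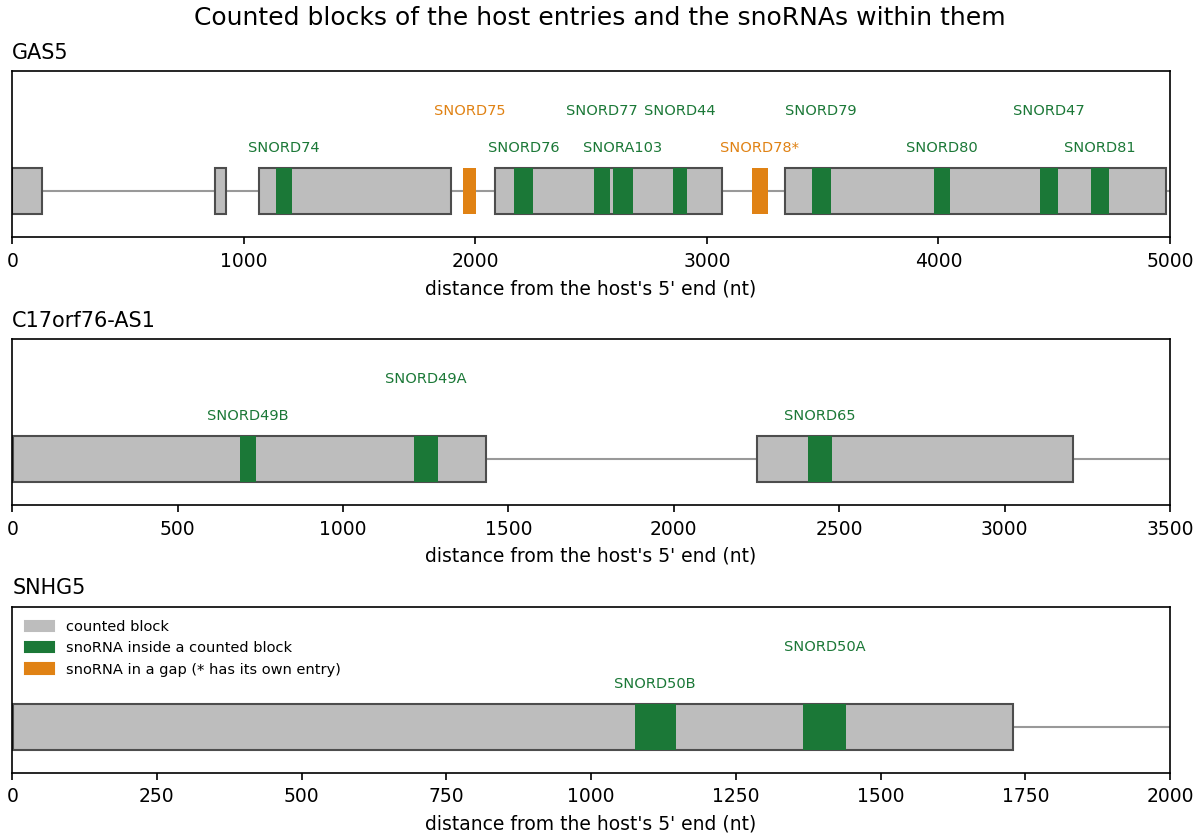
Counted blocks (grey) of GAS5, C17orf76-AS1 and SNHG5 and the snoRNAs within them, by distance in nt from the 5′ end of each gene, with snoRNAs inside a block in green and those in a gap in orange. Of 16 snoRNAs, 14 are green, and the blocks of C17orf76-AS1 and SNHG5 farther downstream, which hold none, are not drawn.

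Of the 337 snoRNA entries in the tables, 7 lie within the span of a longer entry on the same strand, and 0 overlap a counted block of one. Within the blocks of the 3 hosts, no snoRNA entry on the same strand therefore shared reads with the host entry by position. Entries on the other strand and of other kinds were not checked. SNORD78, at 173834760 to 173834824 on chromosome 1 in GRCh37, is 1 of the 7 and starts 3197 nt from the GAS5 5′ end both in the deposited table and in the newer annotation.

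The sequences of the snoRNAs that the C17orf76-AS1 and SNHG5 entries hold are shown because the counts of these entries include any counted reads from them. They are those of GENCODE 29 on GRCh38, written 5′ to 3′ on the strand of the host, for the 4 of 14 found by name in the sequence tables used here. Capitals mark the first match to TGATGA, the C box, and the last match to CTGA, the D box, searched on the strand of the RNA only.
SNORD49A: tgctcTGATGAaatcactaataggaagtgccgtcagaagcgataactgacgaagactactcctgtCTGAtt
SNORD49B: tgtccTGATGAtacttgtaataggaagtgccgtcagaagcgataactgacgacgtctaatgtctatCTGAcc
SNORD65: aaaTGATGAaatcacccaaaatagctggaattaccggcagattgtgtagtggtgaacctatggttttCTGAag
SNORD50B: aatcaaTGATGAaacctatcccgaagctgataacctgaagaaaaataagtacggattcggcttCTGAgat

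These 4 RNAs are 70 to 73 nt long in GENCODE 29. The C box letters begin at position 6 in SNORD49A and SNORD49B, at 4 in SNORD65 and at 7 in SNORD50B, and the D box letters begin at 66, 67, 68 and 64. Both motifs, in this order, occur in 220 of the 288 SNORD transcripts of the same annotation, or 76.4%, so they mark the class and not these genes. SNORD49A and SNORD49B share an unbroken stretch of 35 nt, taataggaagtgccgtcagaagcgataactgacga, from position 18 in both. Both lie in C17orf76-AS1, so any counted reads from the shared stretch belong to the same entry whichever copy they came from. Whether reads with several matches were counted is not given in the sources used here. RefSeq annotates SNORD49B with 48 nt, the length used for the nucleotide share above.

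GAS5 took 2985643, 3731972 and 5815859 reads in cell libraries 1 to 3, and 176352, 186976, 239720, 66500 and 62623 in exosome libraries 1 to 5. As CPM, counts scaled to library totals adjusted by edgeR's TMM factors, its level was 81916, 124158 and 112093 in cells and 5412, 5333, 5253, 1951 and 4378 in exosomes. The cell libraries were close together, the groups did not overlap, and exosome library 4 was the lowest of the 8 in CPM. Here and below, non-overlap of the groups is a description, since how many of all features show it was not counted. By plain share of reads exosome library 5 was lower, at 0.229% against 0.285%. GAS5 was the fourth most read feature in each cell library and ranked between 18 and 38 in exosomes. Its mean was 4465 ± 1466 CPM (SD, n = 5) in exosomes and 106056 ± 21758 CPM (SD, n = 3) in cells. The log2 fold change was -4.57 (SE 0.52), or 23.8-fold lower in exosomes.

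C17orf76-AS1 was at 90393, 254628 and 147980 CPM in cell libraries 1 to 3 and at 5049, 5203, 5243, 1586 and 3670 CPM in exosome libraries 1 to 5. The groups again did not overlap and exosome library 4 was again the lowest in CPM. By plain share exosome library 5 was lower, at 0.192% against 0.231%. As a plain share of reads the cell libraries were nearly level, with 12.8%, 14.1% and 13.4%, and the wider spread in CPM is that of the scaling factors. It ranked 1 to 3 in cells and 21 to 45 in exosomes. The means were 4150 ± 1575 CPM (SD, n = 5) in exosomes and 164334 ± 83330 CPM (SD, n = 3) in cells. The log2 fold change was -5.31 (SE 0.58), or 39.6-fold lower in exosomes.

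SNHG5 was at 8509, 241547 and 29606 CPM in cell libraries 1 to 3 and at 2595, 4213, 4756, 2343 and 2115 CPM in exosome libraries 1 to 5. Cell library 2 held 28.4 times the level of cell library 1, against 1.52 times between the highest and lowest cell library for GAS5 and 2.82 times for C17orf76-AS1. The groups did not overlap, and their nearest values were 8509 CPM in cell library 1 and 4756 CPM in exosome library 3. The means were 3204 ± 1197 CPM (SD, n = 5) in exosomes and 93221 ± 128887 CPM (SD, n = 3) in cells. Its log2 fold change of -4.86 (SE 0.81), 29.1-fold lower in exosomes, became -2.59 without cell library 2. Plain total counts for scaling gave -3.92 and limma-voom -3.68.

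**Figure D2:**
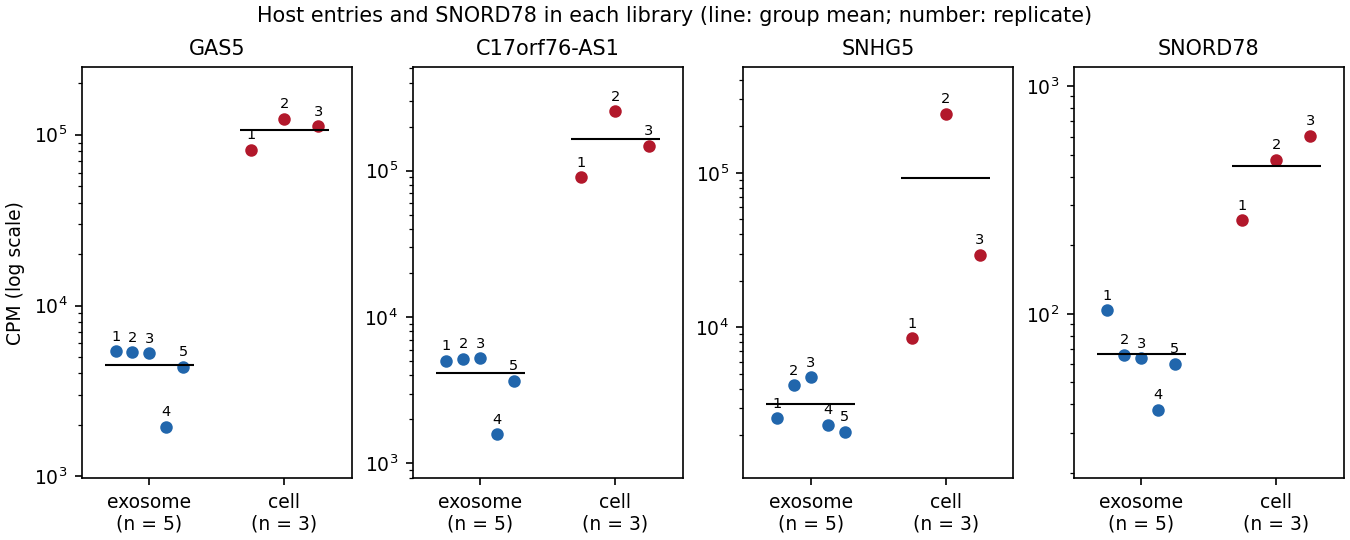
CPM on a log scale of GAS5, C17orf76-AS1, SNHG5 and SNORD78 in each of the 5 exosome and 3 cell libraries, with the replicate number at each point and a line at the group mean. Every cell library lies above every exosome library in each panel, and SNHG5 runs from 8509 to 241547 CPM among the cells. The 3 hosts were chosen as much lower in exosomes, and how many of all features show such a separation was not counted.

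The 3 hosts together took 25.7%, 34.2% and 26.2% of all counted reads in cell libraries 1 to 3, and 1.58%, 1.60%, 2.15%, 0.858% and 0.532% in exosome libraries 1 to 5. A large part of what was counted in each cell library was thus assigned to 3 genes. The mean was 28.7% ± 4.80 (SD, n = 3) in cells and 1.34% ± 0.644 (SD, n = 5) in exosomes, an exosome-minus-cell difference of -27.4 percentage points. With large ribosomal RNA features left out of the totals, the shares were 34.8% to 46.3% in cells and 1.38% to 3.90% in exosomes. Within these sums SNHG5 took 1.21%, 13.3% and 2.68% of the reads in cells, and GAS5 took 11.6%, 6.85% and 10.1%. Cell library 2, with the highest combined share, was thus the cell library in which GAS5 took the smallest share. In CPM, GAS5 was instead highest in cell library 2, at 124158 against 81916 and 112093, with a TMM factor of 0.552 for that library.

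**Figure D3:**
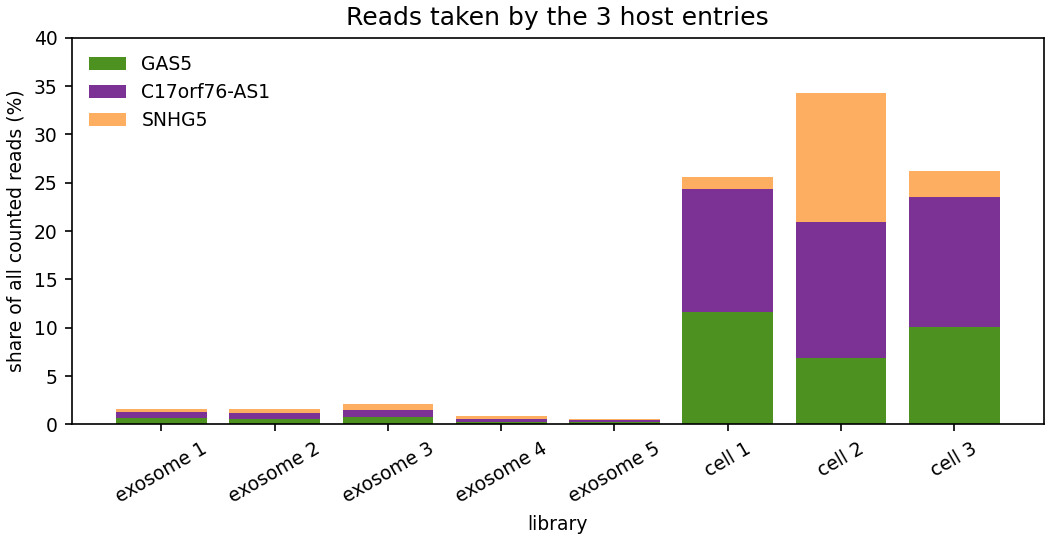
Stacked bars of the share of all counted reads, in percent, taken by GAS5, C17orf76-AS1 and SNHG5 in each library. The cell bars reach 25.7% to 34.2% and the exosome bars 0.532% to 2.15%, and the SNHG5 segment is large in cell library 2 alone, at 13.3%.

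Ratios of counts within a library do not depend on the scaling. C17orf76-AS1 had 0.813 to 0.998 reads for each GAS5 read in the 5 exosome libraries and 1.1, 2.05 and 1.32 in the cell libraries. GAS5 was thus the larger of the pair in all exosome libraries and the smaller in all cell libraries. SNHG5 had 0.479 to 1.20 reads for each GAS5 read in exosomes and 0.104, 1.95 and 0.264 in cells. That ratio differed by 2.51 times between exosome libraries and by 18.8 times between cell libraries, and the groups overlapped.

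SNORD78, the GAS5 snoRNA outside the counted blocks, gives the only measurement of a single snoRNA from these genes. It was at 258, 475 and 604 CPM in cell libraries 1 to 3 and at 104, 66.2, 63.9, 38.0 and 60.3 CPM in exosome libraries 1 to 5. The groups did not overlap, and exosome library 4 was the lowest in CPM here too. By plain share exosome library 5 was lower, at 0.00316% against 0.00555%. The log2 fold change was -2.75 (SE 0.51, edgeR's quasi-likelihood test with Benjamini-Hochberg adjustment over all 1178 tested features, adjusted p = 0.000638), or 6.71-fold lower in exosomes. Without cell library 3 it was -2.10, still past the threshold of 0.05.

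The GAS5 entry had 317, 261 and 186 reads for each SNORD78 read in cells and 52.0, 80.6, 82.2, 51.3 and 72.6 in exosomes. Each cell library was above each exosome library. Per length, GAS5 stood at 3.32 to 5.68 times the level of SNORD78 in cells and at 0.919 to 1.47 times in exosomes. The GAS5 length is its 3631 counted nt, of which snoRNAs make up 18.6%, and that of SNORD78 its own 65 nt. These per-length levels are therefore unlike measures. A snoRNA of GAS5 that was counted on its own was thus lower in exosomes, with a smaller fold than the GAS5 entry, a difference that was not tested.

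**Figure D4:**
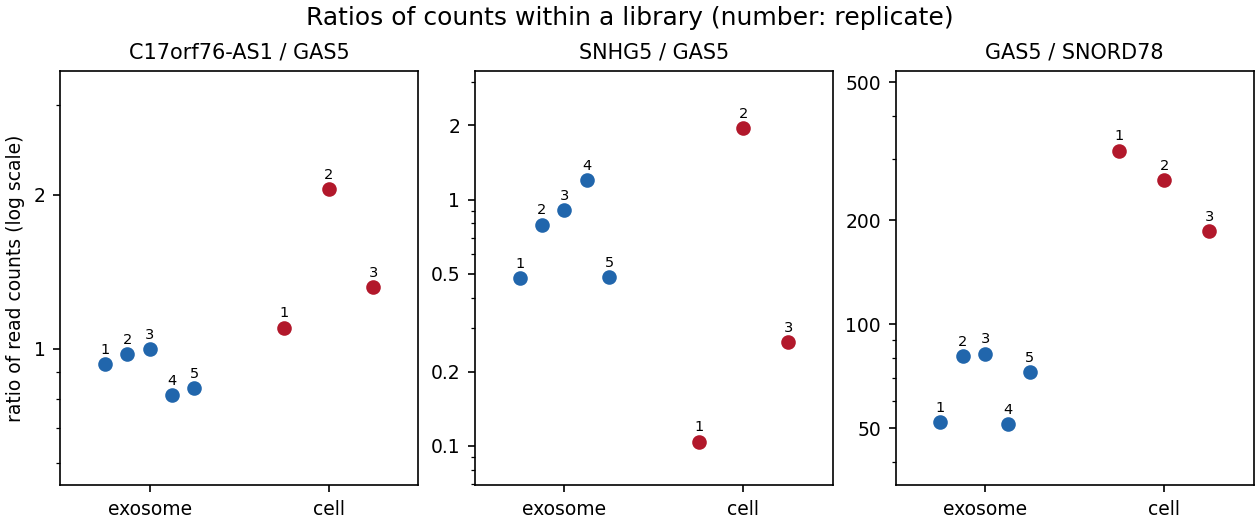
Ratios of read counts within each library on log axes, for C17orf76-AS1 over GAS5, SNHG5 over GAS5 and GAS5 over SNORD78, with exosome libraries in blue, cell libraries in red and the replicate number at each point. The groups are apart in the left and right panels (0.813 to 0.998 against 1.1 to 2.05, and 51.3 to 82.2 against 186 to 317) and overlap in the middle panel.

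Across the tables, 263 of the 1178 features that passed the filter on low counts were lower in exosomes at an adjusted p under 0.05 (22.3%), and 241 were higher (20.5%), which makes 42.8% in either direction. The median log2 fold change over all tested features was -0.09. Of the other 1177 features, 29 had a lower log2 fold change than GAS5, 9 than C17orf76-AS1 and 19 than SNHG5. Since the 3 genes were chosen for this contrast, nothing is read from that order. Under other scalings, filters and left-out libraries the median of all features moved to between -0.20 and 0.38. Relative to that median, GAS5 was at -4.48 with all libraries and TMM scaling, C17orf76-AS1 at -5.22 and SNHG5 at -4.77.

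Of 25 other snoRNA host genes listed by name, 12 had an entry and passed the filter. SNHG1, SNHG3, SNHG7, SNHG15 and SNHG16 fell in exosomes, 5 of 12 (41.7%, against 22.3% of all features), 0 rose, and 7 did not pass edgeR's test. At an unadjusted p under 0.05, 1 was higher, EPB41L4A-AS1. At an adjusted p, DESeq2 called it higher too, at a log2 fold change of 1.66, and limma-voom called 0. The median of the 12 was -1.05.

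SNHG1, which carries a series of C/D snoRNAs in its introns, had the lowest value of this list. It was at 11753, 52671 and 41079 CPM in cell libraries 1 to 3 and at 2494, 3499, 3889, 1401 and 2143 CPM in exosome libraries 1 to 5. The groups did not overlap, and in CPM cell library 1 was the lowest of the cells and exosome library 4 the lowest of all. By plain share exosome library 5 was lower than exosome library 4, at 0.112% against 0.204%. Its log2 fold change was -3.71 (SE 0.57, adjusted p = 0.00019). SNHG3 was at -2.45 (adjusted p = 0.00312) and SNHG16 at -1.89 (adjusted p = 0.00397).

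SNHG7 was at -2.03 (adjusted p = 0.0233), and its call was lost without exosome library 3 or 4 or cell library 1 or 3. Its groups overlapped, and it was at -1.22 without cell library 1 and at -2.74 without cell library 2. SNHG15 was at -1.30 (adjusted p = 0.034), and its call was lost on leaving out any library but cell library 2. Among those that did not pass were SNHG6 at -0.72 (adjusted p = 0.332) and SNHG12 at -0.44 (adjusted p = 0.498). Without cell library 3 they were at 0.49 and 0.19, and without exosome library 4 SNHG12 was at 0.02.

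The counted blocks of these hosts also differ in which snoRNAs they hold. The layout of 9 of the 12 equals that of GENCODE 29. For SNHG1, SNHG12 and DANCR it was not matched, so which snoRNAs their blocks hold is not listed. The SNHG1 blocks cover 3792 of 3927 nt, or 96.6%, so little of its span lies outside them, and no snoRNA entry lies within that span. Of the 9, SNHG6 holds the C/D RNA SNORD87 and SNHG16 holds SNORD1A and SNORD1C, while 6 (SNHG3, SNHG7, SNHG8, SNHG9, SNHG11 and SNHG15) hold H/ACA RNAs only and EPB41L4A-AS1 holds none. SNHG6, with a C/D RNA inside, stood at 73.9 ± 34.2 CPM (SD, n = 5) in exosomes and 122 ± 95.1 CPM (SD, n = 3) in cells, and the groups overlapped. SNHG16 stood at 34.5 ± 7.83 CPM in exosomes and 128 ± 24.2 CPM in cells, and the groups did not overlap.

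Most non-imprinted box C/D snoRNAs with entries of their own were low in exosomes. Entries of the imprinted clusters were left out of this count and were mixed. For example, SNORD116-25 was at -3.23 (adjusted p = 0.00105) and SNORD116-24 at 0.96 (adjusted p = 0.269) in the edgeR test. Of 121 non-imprinted C/D entries tested, 99 fell (81.8%, against 22.3% of all features), 1 rose and 21 did not pass, with a median log2 fold change of -2.97. The one that rose was SNORD89, at 2.69 (SE 0.78, adjusted p = 0.0106), and its call was lost without cell library 2 (2.33). Its groups overlapped, with 15.7 to 175 CPM in exosomes and 6.29 to 16.7 CPM in cells. Without cell library 3 it was at 3.41. A list of 36 C/D entries was chosen by name, mostly from introns of ribosomal protein and other translation genes. It does not hold every such snoRNA. Of these 36, 30 fell (83.3%), 6 did not pass and 0 rose with edgeR, with a median of -2.94. At an unadjusted p under 0.05, with DESeq2 and with limma-voom, 0 rose too. SNORD101 was at -6.54 (adjusted p = 1.33e-06), SNORD2, which lies within EIF4A2, at -5.24 (adjusted p = 2.3e-05), and SNORD18A at -4.03 (adjusted p = 0.000272, and -3.05 without cell library 2). Among all 121 non-imprinted C/D entries, 18 had a lower log2 fold change than GAS5, 5 than C17orf76-AS1 and 12 than SNHG5.

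Of the 33 C/D snoRNAs listed for non-coding hosts, 8 had an entry of their own and all 8 fell (against 22.3% of all features), with a median of -4.15. SNORD12 of ZFAS1 was at -4.63 (adjusted p = 0.000133), SNORD12B at -4.13 (adjusted p = 0.000241) and SNORD52 at -3.29 (adjusted p = 0.000965). Without cell library 3 they were at -3.76, -2.74 and -2.19. SNORD78 had the smallest change of the 8.

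A pair of these snoRNAs could be set beside a host that was counted separately. SNORD99, which lies in a gap between the counted blocks of SNHG12, was at 143 ± 61.9 CPM (SD, n = 5) in the exosome libraries and 2759 ± 1316 CPM (SD, n = 3) in the cell libraries, a log2 fold change of -4.27 (SE 0.58, adjusted p = 7.23e-05). Without cell library 3 it was -3.65. SNHG12 itself, at 73.5 ± 23.5 CPM in exosomes and 99.5 ± 32.8 CPM in cells, was at -0.44 (SE 0.49). SNORD1B, in a gap of SNHG16, was at -4.17 (SE 0.51, adjusted p = 3.7e-05) beside -1.89 (SE 0.46) for SNHG16. In both C/D pairs the snoRNA had the larger change, whereas in GAS5 the entry of the gene had a larger change than SNORD78. GAS5 was not alone in this: the H/ACA RNA SNORA73B, in a gap of SNHG3, was at -0.93 beside -2.45 for SNHG3. Among other H/ACA RNAs in gaps, SNORA13 was at -2.38 beside 1.65 for EPB41L4A-AS1. SNORA26 was at -2.77 beside 1.18 for DANCR, and SNORA60 at 0.72 beside 1.47 for SNHG11. These differences between entries were not tested.

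**Figure D5:**
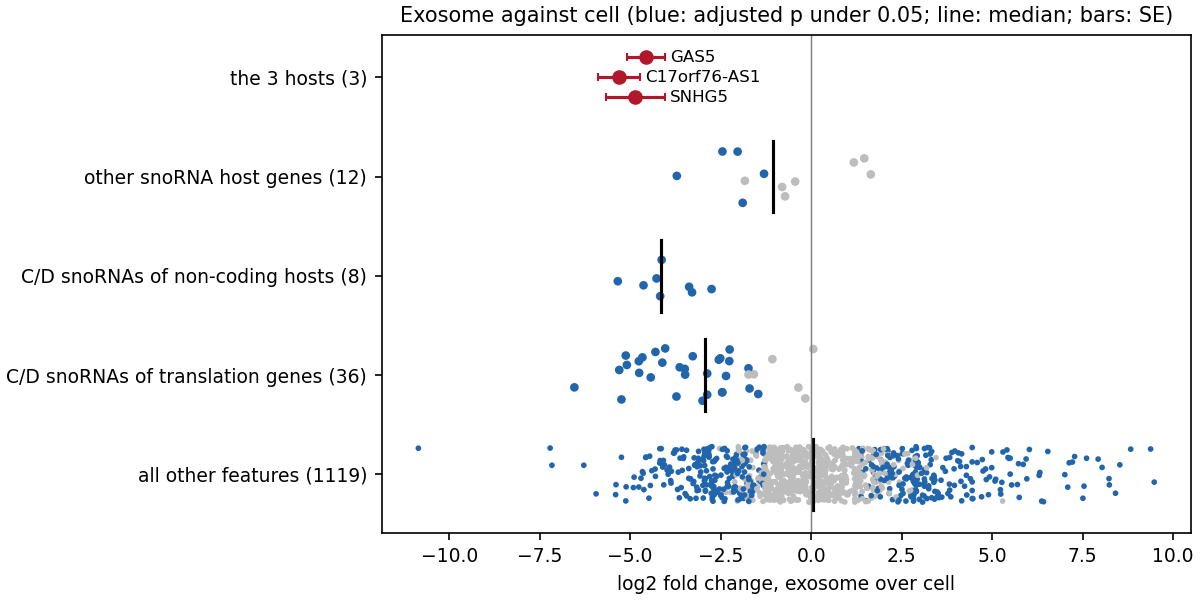
Log2 fold change, exosome over cell, of the 3 hosts with standard errors, the 12 other snoRNA hosts, the 8 C/D snoRNAs of non-coding hosts, the 36 listed by name for translation genes and all other tested features, with calls at an adjusted p under 0.05 in blue and a line at each median. The 3 hosts, chosen for this contrast, lie at -5.31 to -4.57, and the median of the 12 other hosts is -1.05.

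Per length, the level of the hosts can be set beside that of single snoRNAs. The GAS5 entry was at 1230 CPM per kb of counted length in exosomes and 29208 in cells, C17orf76-AS1 at 1104 and 43717, and SNHG5 at 1453 and 42258. The median of the 121 C/D snoRNA entries was 413 CPM per kb in exosomes and 2465 in cells. Of these entries, 18 were above GAS5 per kb in cells, 14 above C17orf76-AS1 and 14 above SNHG5, and in exosomes the numbers were 35, 35 and 30. The host lengths include all exon bases, of which snoRNAs make up the shares given above.

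The features most like each host were found by the root mean square difference of log2 CPM, centred on each feature's mean, over the 8 libraries and 712 features. For GAS5 the closest were SNORD1B (0.40), SNORD63 (0.40), C17orf76-AS1 (0.41), SNORD43 (0.41) and SNORD99 (0.42). For C17orf76-AS1 they were SNORD63 (0.34), SNORD43 (0.35), SNORD2 (0.36), GAS5 (0.41) and SNORD102 (0.43). All of these but the hosts themselves are single C/D snoRNAs from other loci. The 8 libraries share 2 levels that are far apart in these features, so likeness mostly reflects the difference between exosomes and cells.

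SNHG5 was less like GAS5 and C17orf76-AS1 than they were like each other (0.41). Of 712 features, it was 97th in order of likeness to GAS5, at 1.24, and 58th for C17orf76-AS1, at 1.23. The features closest to it were SNORD59A (0.31), SNORD127 (0.41), SNORD71 (0.45), SNORD104 (0.48) and SNORD55 (0.53). SNORD59A was at 1036, 20684 and 4875 CPM in cell libraries 1 to 3, SNORD104 at 1677, 40321 and 10227, and SNORD55 at 1668, 26534 and 12928. These C/D snoRNAs were highest in cell library 2 and lowest in cell library 1 among the cells, as SNHG5 was. Without cell library 2, SNORD59A went from -4.44 to -2.88 and SNORD104 from -4.89 to -3.37.

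In the excess of cell library 2 over the higher of the other cell libraries, SNHG5 was 8th of 713 features, with a log2 difference of 3.03. C17orf76-AS1 was 171st (0.78) and GAS5 272nd (0.15). In the same library RN7SK, a nuclear RNA that holds back the elongation factor P-TEFb, was at 997 CPM, against 9680 and 17894 in cell libraries 1 and 3. The part of these differences in library composition in the SNHG5 value was not tested.

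As reference RNAs of known location, RN7SK and the cytoplasmic Y RNA RNY4 were read in the same fit. RN7SK averaged 227 ± 38.9 CPM (SD, n = 5) in the exosome libraries and 9524 ± 8450 CPM (SD, n = 3) in the cell libraries, a log2 fold change of -5.39 (SE 0.71, adjusted p = 6.17e-05). It was -6.01 without cell library 2 and -4.31 without cell library 3. RNY4 was at 103933 ± 24737 CPM in the exosome libraries and 6743 ± 2597 CPM in the cell libraries, a log2 fold change of 3.95 (SE 0.58, adjusted p = 0.000145). Both have many near-identical copies in the genome, and how reads with several matches were counted is not given in the sources used here, so their levels are uncertain. RNY4 alone took 7.60% to 13.1% of the reads of an exosome library, where the 3 hosts together took 0.532% to 2.15%.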

How the data were processed

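Read counts per feature were deposited for 8 MEC-1 small RNA libraries (5 exosome, 3 cell), raw and not normalized, per the file headers. GRCh37 (hg19, hs37d5) as the build, and STAR, cutadapt 1.1, featureCounts and DESeq2 1.8.2 as tools, come from the submitters' processing notes. Strand and multiple-match settings: not given in the sources used here.

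Counts were tested with edgeR 4.0.16 in R 4.3.3: filterByExpr with a minimum count of 10, TMM scaling, robust quasi-likelihood fit of exosome against cell, and Benjamini-Hochberg adjustment over 1178 features, called at an adjusted p under 0.05. The SE is the size of the log2 fold change divided by the square root of F. DESeq2 1.42.0 and limma 3.58.1 were alternatives. The code was tested on simulated data. Counted blocks were compared with GENCODE 29 and RefSeq gene models by distance from each host's 5′ end.

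The 3 hosts and the lists were chosen with earlier results of these data known. Named were these hosts, the 5 features most like each (mean count of at least 100), the 6 most abundant members of each other list or fewer, snoRNAs inside the hosts, RN7SK and RNY4. The remaining hosts of the list and the C/D snoRNA that rose were named after their values were seen.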

Additional observations from a re-analysis of the deposited data

Results flagged for a closer look

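Among 43 groups of 5 exosome libraries, for the named features, the combined share and the count ratios, 2 held a library far from the others, where chance alone sets apart about 1 in 20 groups. Exosome library 4 was the lowest in both, in CPM. SNORD102, a C/D snoRNA among the features most like C17orf76-AS1, was at 98.3 CPM there, and its gap to the next library was 0.839 of the range of the group. SNHG16 was at 21.0 CPM there, with a gap of 0.732 of the range. In CPM, exosome library 4 was also the lowest for GAS5 (1951) and C17orf76-AS1 (1586). By plain share of reads, exosome library 5 was lower for GAS5 (0.229% against 0.285%) and for C17orf76-AS1 (0.192% against 0.231%). SNORD102 was at 0.0143% in exosome library 4 and 0.0149% in exosome library 5. For GAS5 and C17orf76-AS1, whether exosome library 4 lies below exosome library 5 thus depends on the TMM scaling. For SNORD102 the distance between these libraries does.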

How the results depend on the processing

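Leaving out 1 library at a time gave log2 fold changes of -4.81 to -4.03 for GAS5, -5.67 to -4.73 for C17orf76-AS1 and -5.44 to -2.59 for SNHG5, and other settings gave -4.64 to -4.15, -5.30 to -4.81 and -4.78 to -2.44. The SNHG5 value of -2.44 was without exosome library 5 and cell library 2 together. The combined share of the 3 hosts in exosomes minus cells was -36.7 points without large ribosomal RNA, -24.4 without exosome library 5 and cell library 2, and -28.9 to -24.6 with 1 library left out. Other hosts called lower numbered 3 with total counts alone, 3 with at least 50 counts in 3 libraries, and 3 to 6 with 1 library left out. Other hosts called higher numbered 1 with upper-quartile factors, without large ribosomal RNA, with no low-count filter, with 50 counts in 3 libraries and with DESeq2, and 0 to 1 with 1 library left out. That host was EPB41L4A-AS1 (1.65, adjusted p = 0.0634 with TMM). C/D snoRNAs called higher numbered 0 without exosome library 5 and cell library 2 together, and 0 to 1 with 1 library left out. Reversed were SNHG12 (0.02 without exosome library 4, 0.19 without cell library 3) and SNHG6 (0.49 without cell library 3), and with 1 library left out SNHG12 ran from -0.74 to 0.19 and SNHG6 from -1.15 to 0.49. The cause of these changes was not tested.

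The design text says that 3 exosome samples have paired cells without naming them. Libraries with the same number correlated at 0.045, -0.014 and 0.094 in their deviations from the group means, so the numbers were not taken to pair them. With the replicate number as a block SNHG5 was at -3.21 and 2 other hosts were called lower. The libraries numbered 1 to 3 alone, chosen after seeing the data, gave the same direction for the 3 hosts.

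For 35 single genes, 659 of 695 values kept direction and side of the threshold, 25 lost a call, 8 gained one and 3 reversed. SNHG16 lost its call with total counts alone, SNHG3 with the block, and SNHG8 gained one without cell library 2 (-1.35, adjusted p = 0.0495). Counts per gene cannot place reads on a snoRNA or an exon, and with 3 cell libraries the SNHG5 mean rests largely on 1 of them. SNHG9 had a value under 16 of 20 settings and SNHG11 under 19, since the filter removed them in the others.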
